A study of Xenopus laevis with 4 samples.

Results

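Rab and Arf GTPases are small switch proteins that direct membrane traffic, and the m5C (5-methylcytidine) sites listed in their mRNAs and in those of their regulators were examined in early embryos of the frog Xenopus laevis. Genes were chosen by name from both site lists, with the final .L or .S of the gene name removed: names beginning with rab, arf, arl or rin plus a digit, and those of the tbc1d, dennd, rabgap, rabggt, gdi, sgsm, arfgap, arfgef, gbf1, cyth, asap, agap and related families. At stage 0 these were 240 of 16233 sites (1.48%), in 100 of 7140 genes (1.40%), counted by gene identifier. At stage 25 they were 0 of 45 sites.

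Poly(A)+ RNA of wild-type embryos at stage 25 (tailbud) and at stage 0, the earliest stage, was treated with bisulfite and sequenced. Each stage had 2 libraries from about 200 pooled embryos, so that animals could not be compared. The deposited lists hold 1 combined value per site and stage, with no column for either library. The spread between libraries is therefore unknown, and the intervals and tests cover the counting of reads only.

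A Rab or Arf protein is inactive with GDP and active with GTP. Guanine nucleotide exchange factors (GEFs) load GTP and so switch it on, GTPase-activating proteins (GAPs) speed hydrolysis and switch it off, and effectors bind the active form on a membrane. Rabs are held on membranes by lipid groups that Rab geranylgeranyl transferase adds, and GDP dissociation inhibitors carry them through the cytosol. Arfs recruit coats such as COPI and clathrin adaptors, and several of the related Arl proteins act in cilia, at lysosomes or at the Golgi. In bisulfite sequencing an unmethylated C is read as T, while m5C is still read as C, so the level of a site is the percentage of C among its C and T reads.

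No gene of the Rab and Arf sets had a listed site at stage 25. The count of 0 of 45 sites allows a share of up to 6.67%, an approximate 95% limit taken as 3 divided by the number of sites. At the stage 0 share of 1.48% only 0.665 sites would fall in a list of this length. None of the 36 sites listed at both stages lay in a member gene, so no member could be compared between stages. Absence from the stage 25 list could not be read as a lower level, because the list holds only sites that passed the authors' call.

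At stage 0 the member sites had levels close to those of all listed sites. Their median was 21.8% (lower quartile 13.4%, upper quartile 38.5%), against 21.1% (13.9% and 37.5%) for all sites. A level of 50% or more was listed at 44 member sites (18.3%), against 16.3% of all sites, and a level under 20% at 108 member sites (45.0%), against 47.2% of all. The depth was also alike, with a median of 146 reads per site in members and 146 in all. Member sites ranged between 21 and 3734 reads, and their median 95% Wilson interval reached 6.45 percentage points to either side.

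**Figure D1:**
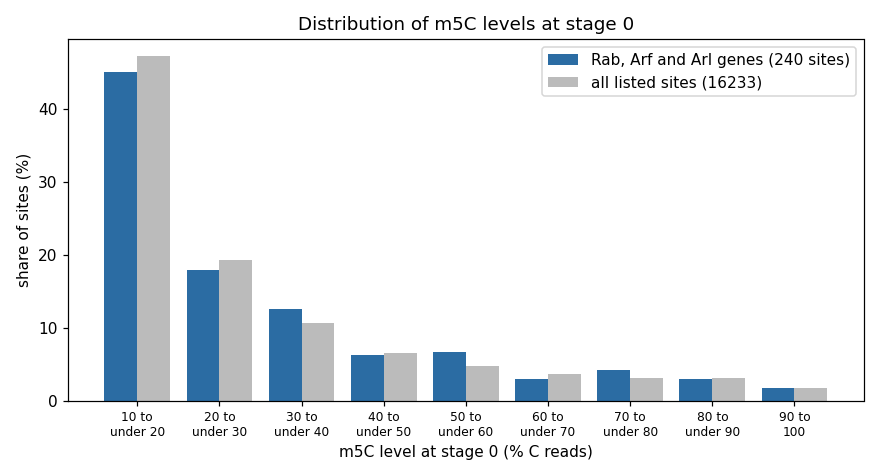
Share of sites (vertical axis, %) by m5C level at stage 0 (horizontal axis, % C reads) for the 240 member sites and all 16233 listed sites. Both distributions are tallest at the lowest levels, and 18.3% of member sites and 16.3% of all sites lie at 50% or above.

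Sites were spread unevenly over the members. There were 2.40 sites per member gene, against 2.27 per listed gene of the whole list, and 44 member genes (44.0%) had a single site, against 45.4% of all genes. The 53 GTPase genes held 89 sites, or 1.68 per gene, and only rab40c.L among them reached 5. The 47 genes of regulators and interactors held 151 sites, or 3.21 per gene, and 12 of them had 5 or more. Genes with 5 or more sites were thus 1.89% of the GTPase genes and 25.5% of the regulators and interactors, against 9.73% of all listed genes. In contrast, the median levels of these classes were close, at 21.8% for GTPases and 21.7% for regulators and interactors. Transcript length was not compared, since no gene models of the build were used.

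**Figure D2:**
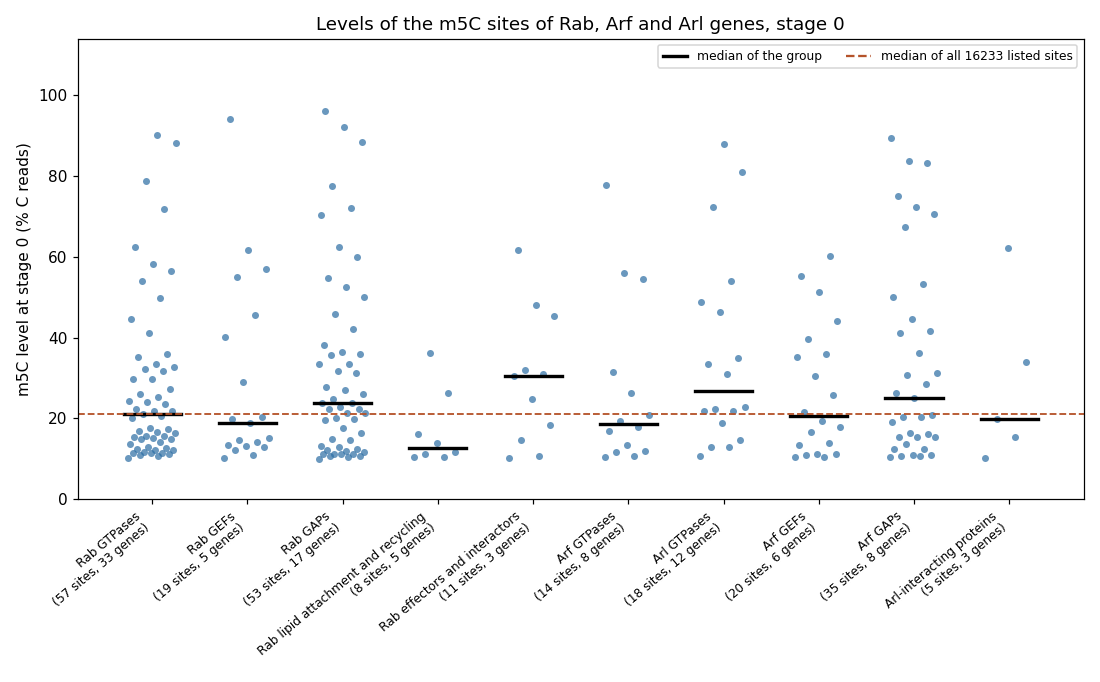
Level of every member site at stage 0 (vertical axis, % C reads) in the 10 role groups, with 1 point per site, the median of each group as a black bar and the median of all listed sites as a dashed line. Group medians lie between 12.8% for lipid attachment and recycling and 30.6% for Rab effectors, and most groups hold sites both near 10% and above 50%.

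The Rab GTPases were the largest group, with 57 sites in 33 genes and a median level of 20.9%. Rab3a, which acts in regulated exocytosis, carried the highest level among them. At position 101355479 of chromosome 1L (plus strand), rab3a.L had 90.3%, from 1279 C reads of 1417, with a 95% Wilson interval of 88.6% to 91.7%. Next was rab14.S, a Rab of endosomal recycling and Golgi traffic, with 88.2% at position 31295558 of chromosome 8S (1292 of 1465 reads; 86.4% to 89.7%). Both sites were named for their high levels, and both were among the deeper member sites.

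Several Rabs act in the early secretory pathway. Rab1a, which serves transport between endoplasmic reticulum and Golgi, had 17.4% in its L copy, and 21.7% and 26.1% in its S copy, the last from 2853 reads. Rab6a, a Golgi Rab, had 14.8% in its L copy and 49.7% in its S copy. Rab18, which is found on lipid droplets and the endoplasmic reticulum, had 11.1% in its L copy and 36.0% in its S copy. In these 3 genes the highest listed site was in the S copy, as it also was in rab8b, rab14 and rab35. In rab3a, rab7a and rab10 it was in the L copy. The copies of rab1a were not tested against each other, and the sites of the copies need not be the same base. Rab33b.L, a Golgi Rab listed in its L copy, had 62.5% (272 of 435 reads).

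Endocytic Rabs were listed as well. Rab5 proteins organize early endosomes, and rab5a.L had 31.7% (221 reads), while rab5c.L had 16.4% and 15.6%. Rab7a marks late endosomes and lysosomes, and its L copy had 53.9% (901 reads) and 10.7% (607 reads), whereas its S copy had 11.3% and 12.5%. The recycling Rab rab11a.S had 20.9% at 2746 reads (19.5% to 22.5%), and rab11b.1.L had 16.5% at 91 reads. Rab20.S, another endocytic Rab, had 41.2% at 34 reads.

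Rabs of transport to the plasma membrane included a high site in rab8a.S. Its levels were 20.0%, 12.7% and 71.8% from 5′ to 3′, from 416, 126 and 351 reads. Its paralogue rab8b stayed between 10.8% and 23.6% over 5 sites in both copies. Rab10, which acts in basolateral and GLUT4 transport in mammals, had 22.2% and 11.5% in the L copy, and 12.2% in the S copy. Rab27a.S, a Rab of secretory granules and melanosomes, had 32.1% and 58.2%, and rab35, a Rab of fast recycling, had 17.5% and 20.6% in its L copy and 33.3% in its S copy. Rab40c.L, whose product recruits a ubiquitin ligase through a SOCS box, had 5 sites between 10.1% and 44.7%.

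The Rab GEFs numbered 19 sites in 5 genes, with a median of 18.8%. Most came from dennd4b.L, a DENN-domain GEF, which had 11 sites, the largest number in a member gene. These lay on chromosome 8L between positions 118220992 and 118250671, at 12.8% to 61.6%, and had 73 to 453 reads. A single site of rin1.L, a Rab5 GEF that binds Ras in mammals, reached 94.1% (32 of 34 reads; 80.9% to 98.4%). Its other site, 436 bases further 3′, had 11.0% (8 of 73 reads), so the level of rin1.L varied over nearly the whole listed range.

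Among the Rab GAPs, 53 sites were listed in 17 genes, with a median of 23.8%. Most of these genes encode TBC-domain proteins, which supply the catalytic residues for GTP hydrolysis, although some, such as the TSC-complex subunit tbc1d7, act otherwise. The highest level of any member was in tbc1d20.2.L, named for a Rab1 GAP, with 96.2% (152 of 158 reads; 92.0% to 98.2%) at position 154512799 of chromosome 6L. Similarly, tbc1d8.L had 1 site of 92.2% (47 of 51 reads) beside sites of 26.1% and 10.6%. Tbc1d10b.S had 8 sites between 10% and 88.5%, the highest from 85 C reads of 96. Tbc1d14.L, whose product takes part in recycling-endosome traffic and autophagy, had 8 sites between 10.5% and 77.6%. Finally, rabgap1l.S had 5 sites between 10.6% and 42.2%. Tbc1d31.L, a centriolar-satellite protein gene, had 5 between 12.5% and 23.8%, at 155 to 1869 reads per site.

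Genes for lipid attachment and recycling of Rabs had the lowest median of the 10 groups, 12.8% over 8 sites in 5 genes, and no site of 50% or more. Rabggtb, the catalytic subunit of Rab geranylgeranyl transferase, had 10.3%, 36.3%, 16.1% and 26.4% in its L copy and 13.8% in its S copy. The partner subunit rabggta.S had 11.1% (6 of 54 reads). Gdi2, a GDP dissociation inhibitor, had 11.7% in its L copy and 10.4% in its S copy, both near the lowest level that was deposited.

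Rab effectors and interactors had 11 sites in 3 genes and the highest group median, 30.6%. The median rests on few reads at several sites. Rab11fip5.L, a Rab11 family interacting protein of recycling endosomes, held 8 of these sites at 10.3% to 48.0%, and 3 of them had under 30 reads. Rab11fip4l.L had 30.6% (180 reads) and 61.6% (203 reads), and rabepk.L, named for a Rab9 effector, had 10.8% (65 reads).

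The Arf GTPases had 14 sites in 8 genes with a median of 18.6%. Arf1, the Arf that recruits COPI at the Golgi, had its highest site in the L copy, 77.9% (74 of 95 reads), 267 bases 3′ of a site at 10.4% (53 of 511 reads). The S copy of arf1 had 17.9% and 26.3%. Arf5 had 16.9% and 10.6% in its L copy, and 11.8%, 54.5% and 31.5% in its S copy. Arf4 had 11.6% in its S copy and 20.9% in a gene without suffix on an unplaced scaffold. Arf6, the plasma-membrane Arf, had 56.1% in arf6.L, and 19.3% and 13.4% in arf6.2.L. Thus arf1.L, arf5.S and arf6.L each had 1 site above 50%, and the other 11 Arf sites lay at 31.5% or below.

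The Arl GTPases had 18 sites in 12 genes and a median of 26.9%. Arl8b, which couples lysosomes to kinesin, had 81.1% (750 of 925 reads; 78.4% to 83.5%), 87.9% (408 of 464; 84.7% to 90.6%) and 12.8% (62 of 485; 10.1% to 16.1%) from 5′ to 3′ in its S copy. The last of these lay 422 bases from the second. Cilia-related members were arl13b.L at 72.4% (134 reads), named for an Arl3 GEF of the ciliary membrane, and arl3.1.S at 21.8% (55 reads). Arl2.L, of tubulin folding, had 35.0% at 2077 reads. The name arl5c.L stood for 2 gene identifiers, 1 on chromosome 9_10L with 12.8%, 46.2% and 21.9%, and 1 on 9_10S with 22.9% and 48.7%, so the suffix of the name did not match the chromosome for the second. Among the Arl-interacting proteins, with 5 sites in 3 genes and a median of 19.7%, arl6ip6.S had 62.1%, 15.4% and 33.8%.

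The Arf GEFs had 20 sites in 6 genes and a median of 20.5%. Gbf1, the large GEF for Arf1 at the early Golgi and the target of brefeldin A, had 17.7%, 51.2%, 21.7%, 25.8% and 60.2% from 5′ to 3′ in its L copy and 30.4% (23 reads) in its S copy. Cyth1.S, a cytohesin that acts at the plasma membrane, had 5 sites. The 2 highest had 35.2% (785 reads) and 55.3% (94 reads), and the others lay between 11.1% and 13.9%. Arfgef2-like.L, named for a BIG-type GEF of the trans-Golgi, had 5 sites that stayed between 10.4% and 19.4%, at 62 to 134 reads. In its S copy, sites of 39.6% (53 reads) and 44.1% (34 reads) were listed.

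The Arf GAPs carried the most sites per gene, with 35 in 8 genes, and their median was 25.0%. Arfgap2, a GAP that joins the COPI coat, held the deepest single member site, in its L copy. From 5′ to 3′ arfgap2.L had 70.5% (2634 of 3734 reads), 83.8% (2654 of 3166), 44.7% (922 of 2063), 20.4% (550 of 2694) and 72.4% (370 of 511). The S copy of arfgap2 had levels of 26.4% (493 reads), 41.7% (528 reads) and 10.6% (85 reads), all below the median of 70.5% in the L copy. Their range still overlapped that of the L copy, and the sites of the copies need not be the same base. Agap1, an Arf GAP that binds the AP-3 adaptor, had 8 sites between 10.5% and 89.6% in its L copy and 7 between 10.8% and 67.3% in its S copy. The agap1.L sites were 257101 bases apart from first to last, introns included.

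**Figure D3:**
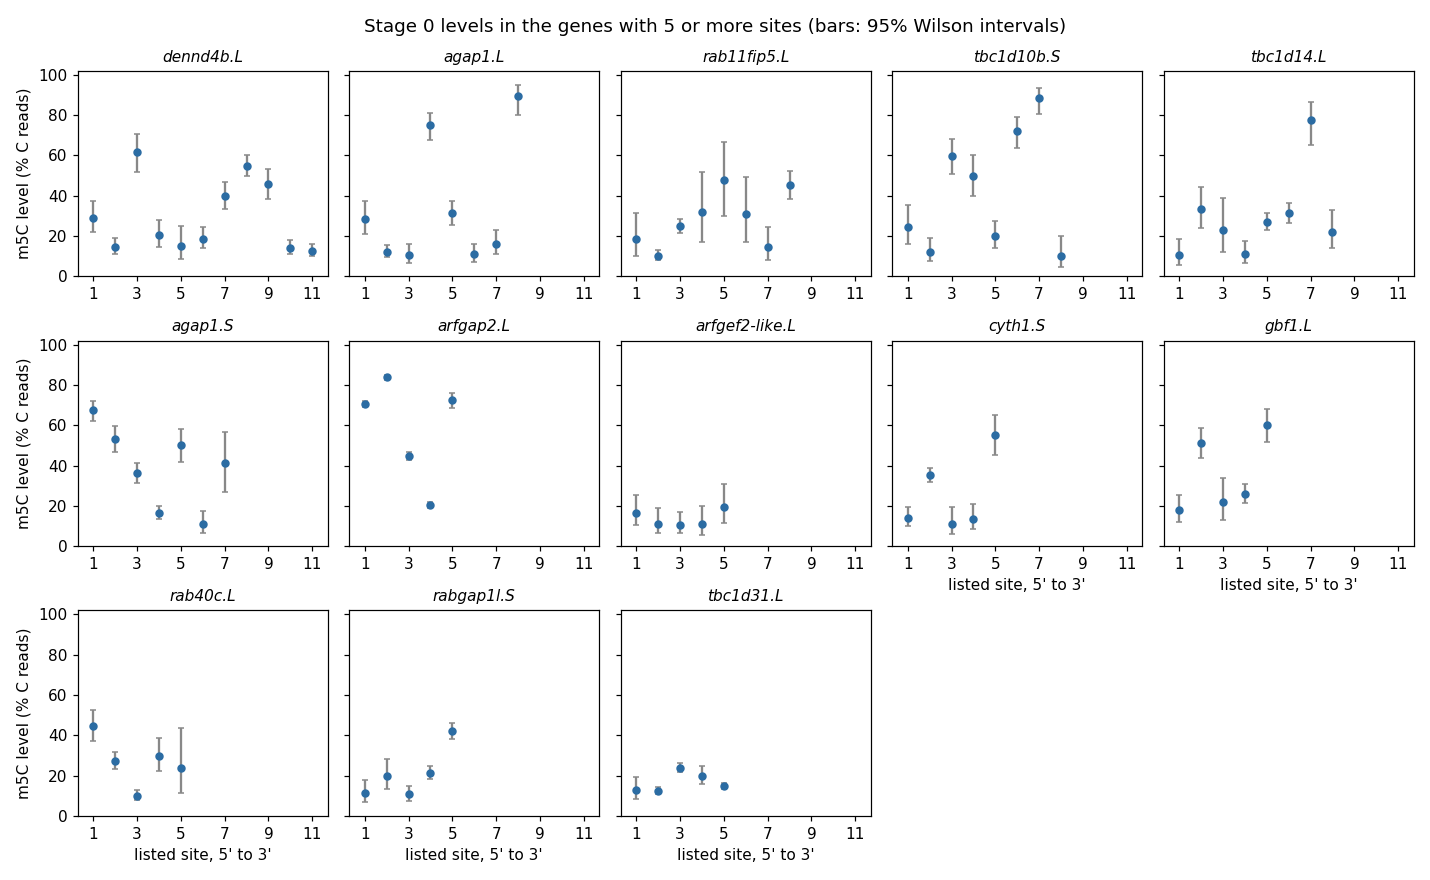
Level of each site (vertical axis, % C reads, with 95% Wilson intervals) in the 13 member genes with 5 or more sites, placed in order from 5′ to 3′ (horizontal axis, site number). In dennd4b.L, tbc1d10b.S, agap1.L and arfgap2.L high and low sites stand in the same gene with intervals that do not overlap, whereas the intervals of all 5 arfgef2-like.L sites overlap.

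Pairs of sites with the same gene identifier were compared by Fisher's exact test on their C and T reads (two-sided). The p-values were Benjamini-Hochberg adjusted over all 22085 within-gene pairs of the whole list. Whether both sites of a pair lie on the same transcript was not examined. Depth could differ widely within a gene, as between the 115 and 2335 reads of arl5b.S. Levels differed at an adjusted p under 0.05 in 210 of 358 member pairs, or 58.7%, and 58.0% of all pairs passed the same threshold. The member pairs that passed lay in 39 of 56 member genes with at least 2 sites, against 2886 of 3895 such genes of the whole list. The share of pairs in members was thus near that of the whole list, and the share of genes was somewhat lower. The median difference in either direction was 16.2 percentage points in member pairs and 13.9 points in all pairs. The 5′ site was higher in 92 of the member pairs that passed and the 3′ site in 118, against 6496 and 6312 of all pairs. Many pairs share a site, and pairs are not independent of each other.

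Genes differed in how many of their pairs passed. In arfgap2.L 9 of 10 pairs passed, in agap1.L 21 of 28, in agap1.S 16 of 21, in tbc1d10b.S 20 of 28 and in dennd4b.L 34 of 55. At the other end, 0 of 10 pairs passed in arfgef2-like.L, 4 of 10 in tbc1d31.L and 11 of 28 in rab11fip5.L. Whether a pair passes depends on its depth as well as on its levels. The median depth per site was 2694 reads in arfgap2.L, 222 in agap1.S, 207 in dennd4b.L, 168 in agap1.L and 109 in tbc1d10b.S. It was 97 reads in arfgef2-like.L, 1146 in tbc1d31.L and 59 in rab11fip5.L. The part of depth in these counts was not tested. The highest site of a gene held no fixed place. In the 31 member genes with 3 or more sites it was the first at the 5′ end in 7, the last at the 3′ end in 7 and an inner site in 17, and among all 2171 such genes it was at the 5′ end in 25.7% and at the 3′ end in 24.5%.

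Some sites were directly next to each other or nearly so. Reads that cover either such site mostly cover both, whereas Fisher's exact test takes the reads of the 2 sites as independent, so p-values for close pairs are approximate. Of 140 gaps between neighbouring member sites, 6 (4.29%) were of 1 base, against 2.60% of all gaps, and 18 (12.9%) were within 50 bases, against 10.5% of all. In rab14.S the high site was followed directly by a C with 15.1% (223 of 1478 reads), 73.1 points lower (adjusted p = 1.66e-298 or less, Fisher's exact test). In agap1.L the 5′ C of a neighbouring pair had 10.5% (18 of 172 reads) and the 3′ C 75.0% (123 of 164). In rab13.L, a Rab of tight-junction and recycling traffic, the levels were 32.7% at the 5′ C and 12.8% at the 3′ C, and in tbc1d13.L they were 35.8% and 52.4%. These 4 of 6 adjacent pairs passed the test, with the 5′ base higher in 2 and the 3′ base in 2, and 63.6% of all adjacent pairs passed. The pairs of arf6.2.L (19.3% and 13.4%) and of rab25.S (15.3% and 16.9%), a Rab11-related gene, did not pass, at 176 and 59 reads for the 5′ base.

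Member pairs 2 to 50 bases apart passed in 9 of 12 cases, against 60.1% of all such pairs. Those 51 to 200 bases apart passed in 7 of 14 cases, against 59.3% of all, and those further apart in 190 of 326, against 57.8% of all. In rabgap1l.L, sites 6 bases apart had 70.5% at the 5′ site (74 of 105 reads) and 11.2% at the 3′ site (12 of 107). In dennd4b.L, sites 5 bases apart had 18.8% and 40.1%. In arf5.S, sites 34 bases apart had 11.8% and 54.5%. These 3 were chosen after their values were seen. Over all 12 member pairs at 2 to 50 bases the differences ran between 5.21 points, in agap1.L, and 59.3 points, in rabgap1l.L.

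The frog genome is allotetraploid, and most genes exist as an L and an S copy (homeologs). Of 76 member names, 22 (28.9%) had sites in both copies, 34 in the L copy only and 20 in the S copy only, by the suffix of the name. Of all 4684 names, 22.0% had sites in both, 2296 in the L copy only and 1357 in the S copy only. The names arl5c and rab40c count as L only, although a gene named arl5c.L and the gene rab40c.L lie on chromosome 9_10S. For names with exactly 1 site in each copy the levels were compared by Fisher's exact test, adjusted over all 183 such names of the table. Among the members 5 of 6 differed, and 62.3% of all 183 did. The sites of the copies need not be the same base of the gene, which was not examined here.

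Rab6a had 14.8% in its L copy (390 of 2640 reads) and 49.7% in its S copy (341 of 686), a difference of -34.9 points (adjusted p = 9.23e-75, Fisher's exact test). In rab18 the L copy had 11.1% (157 of 1417) and the S copy 36.0% (728 of 2023), a difference of -24.9 points (adjusted p = 4.83e-64, Fisher's exact test). Rab3a went the other way, with 90.3% in its L copy and 56.5% in its S copy (35 of 62 reads), a difference of 33.8 points (adjusted p = 9.56e-11, Fisher's exact test). Arl6ip1, which shapes the endoplasmic reticulum, had 10.2% in its L copy and 19.7% in its S copy (adjusted p = 1.10e-06, Fisher's exact test), and arl4a, a plasma-membrane Arl, had 30.9% in its L copy and 14.7% in its S copy (adjusted p = 0.0227, Fisher's exact test). The difference in gdi2, 11.7% in L and 10.4% in S, did not pass (adjusted p = 0.803, Fisher's exact test), with intervals of 8.20% to 16.3% and 6.28% to 16.7%. Accordingly the L copy was higher in 2 and the S copy in 3 of the 5 that passed.

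**Figure D4:**
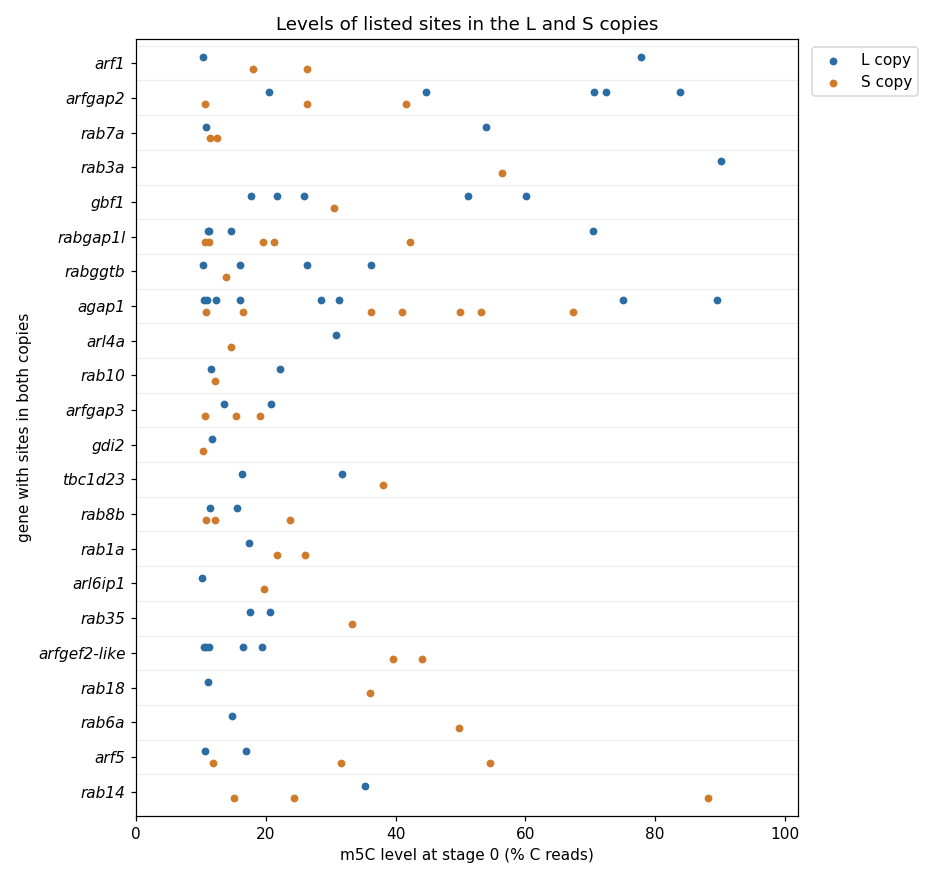
Level of each site (horizontal axis, % C reads) in the L copy and in the S copy of the 22 member names with sites in both copies. The highest site of arf1, arfgap2 and rab7a was in L, and that of rab14, arf5 and rab6a was in S.

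Where copies had several sites, their highest levels also differed in both directions. The highest site of arf1 had 77.9% in the L copy and 26.3% in the S copy, that of arfgap2 83.8% in L and 41.7% in S, and that of rab7a 53.9% in L and 12.5% in S. The reverse was listed for rab14, with 35.2% in L and 88.2% in S, and for arf5, with 16.9% in L and 54.5% in S. The names given here had the largest differences. Others were closer, such as arfgap3 with 20.8% in L and 19.1% in S, and tbc1d23 with 31.8% in L and 38.1% in S. The copies can also hold unequal numbers of sites, as in rab14 with 1 in L and 3 in S. No test was made of these differences, because the highest of several sites was picked by its level.

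Not every well-known GTPase had a site. Of 30 textbook names, 22 were listed, in 34 genes with 56 sites and a median of 20.3%. A name was counted as listed if any copy had a site, with numbered forms such as arl3.1, rab11b.1 and arf6.2 included. No share of all names was taken in this way, and the shares below count each copy apart. The names not listed were rab2a, rab4a, rab5b, rab21, rab22a, arf3, arl1 and arl8a. Of these, rab4a and arl8a were not found among the RefSeq names either, and whether the files use other names for them was not tested. The listed rab35 was not found among the RefSeq names as well. Of the genes that the RefSeq v10.1 annotation names by the same rule, 92 of 273 (33.7%) had a listed site, against 24.2% of all 22203 named genes. By group this share ran between 20.8% for Rab GEFs (5 of 24) and 53.8% for Arf GTPases (7 of 13). It was 50% for lipid attachment and recycling (5 of 10) and 33.7% for Rab GTPases (32 of 95), so several shares rest on few genes. A gene is listed only if its mRNA was read deeply enough at a C, and the part of mRNA abundance in these shares was not tested.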

How the data were processed

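RNA was bisulfite-treated and sequenced in 2 libraries per stage (stage 25 and stage 0). The study's text calls the replicates technical in one place and biological in another. The titles of the stage 25 libraries begin with XT and those of stage 0 with XL, although the organism label of both is X. laevis. The study also sampled X. tropicalis, but its methods give stage 25 for X. laevis only. The species of the stage 25 libraries was taken from the label and was not tested. Per the submitters' processing notes and the study's methods, the authors trimmed reads with cutadapt and Trimmomatic, aligned them with HISAT2 and then Bowtie2 to the converted X. laevis v9.2 genome and transcriptome, removed reads with many unconverted C, and combined both libraries in 1 list per stage. The authors deposited coverage as read counts, the m5C level as a fraction and a combined p-value per site. The deposited sites have at least 20 reads, a level of at least 10% and a p of at most 0.000819, so a site not listed has no value here. A limit on C per read can lower the listed level of clustered sites.

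C reads were recovered as coverage times level, whole within 0.0001 reads at every site. Levels were given with 95% Wilson intervals, which cover counting error only (the reads carry no molecular identifiers, so copies of 1 molecule may be counted several times). Pairs of sites within a gene and L against S copies were compared by Fisher's exact test (two-sided), and p-values were adjusted over the whole table by the Benjamini-Hochberg method (Python 3.11.15, pandas 2.3.3, scipy 1.17.1, numpy 2.4.6, matplotlib 3.10.9); p-values below 1e-300 were set to 1e-300. The script was tested on simulated data. The members, role groups and lists were chosen with earlier results of these data known. Role groups go by gene name, so genes known only by a LOC number are missed. Named with values were the gene with most sites in each role group, genes with 5 or more sites, the 10 sites whose lower Wilson bound was highest, the 5 deepest sites, the homeolog pairs with 1 site per copy, and 30 textbook GTPases; other sites shown, those of close pairs among them, were chosen after their values were seen. Alternatives were higher coverage and level minimums, GTPases alone, assembled chromosomes alone, pairs over 200 bases apart, Bonferroni adjustment and Wilson intervals that do not overlap. Positions are as deposited, on v9.2, and the sources used here do not give whether counting starts at 0 or at 1. RefSeq v10.1 served for names only, and 91 of 99 member names matched. Exon, UTR and sequence context were not analysed here.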

Additional observations from a re-analysis of the deposited data

How the results depend on the processing

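The number of member sites at stage 0 was lower with stricter minimums: 156 at 100 or more reads, 132 at a level of 20% or more and 89 at 30% or more, and the GTPases alone gave 89. Member genes numbered 55 at 30% or more and 53 for the GTPases alone. The median level was 35.9% at a minimum of 20% and 49.7% at 30%, as the minimum itself removes the lower sites, and for all listed sites it was 36.2% and 49.0%. At 100 or more reads, 124 of 174 member pairs passed (71.3%, against 68.5% of all pairs), and with Bonferroni adjustment 135 of 358 did (37.7%, against 35.2%). The homeolog pairs that differed were 3 of 4 at 100 or more reads (75.0%, against 82.3% of all). The remaining alternatives for these counts and for the median moved them by less than 1.5 times or stayed inside the interval of the median. The number of sites per gene, in the 13 genes with 5 or more, moved by more than 1.5 times in 24 of 52 cases under higher minimums. No paired analysis was possible because neither list has replicate columns, and no library could be left out. Changes at sites listed at both stages gave no value under any setting, as no member was among them.

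The depth limits what can be said of the shallow sites. At the median interval of 6.45 points to either side, differences of a few points between member sites of median depth were not detectable.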

Other observations

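Genes of the same pathways that the name rule does not reach were listed at similar levels. Of 77 such names, 32 were listed, in 39 genes with 85 sites, and their median level was 23.6% (10% to 93.5%). These names too were counted as listed if any copy had a site, with no share of all names taken in this way. Among the GEFs and their subunits, gapvd1.S, a Rab5 GEF, had 10 sites between 11.5% and 69.4% and mon1b.S, part of the Rab7 GEF, had 71.8% (85 reads). Of TRAPP subunits, which activate Rab1-type GTPases, trappc11.S had 4 sites between 17.5% and 35.9% and trappc12.L had 4 between 10.9% and 44.1%. Among effectors, rilpl1.S had 93.5% (123 reads), micall1.S 90.7% (75 reads) and eea1.L, the early endosome tether, 72.2% (54 reads). These effectors were named for their high levels. Other genes of the list were lower, such as hook1.S with 25.6% (86 reads) and hook2.L with 15.2% (355 reads). The Golgi tether gene trip11.L had sites between 16.1% and 91.5%. Of the Arf GAPs outside the rule, smap1.L had 4 sites between 13.7% and 50.2% and git2.L had 3 between 12.2% and 42.4%. All are given as values, with no test.

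The gene name suffix did not match the chromosome in 2 member genes, arl5c.L and rab40c.L, both on 9_10S, and in 123 genes of the whole list. Neither enters the comparison of copies with 1 site each.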
